A study of Mus musculus with 16 samples.

Results

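The genes described here are 7 cell surface adhesion genes, grouped as molecules that red cell precursors lose while they mature: *Itga4*, *Itga5*, *Itgb1*, *Cd44*, *Spn*, *Cd24a* and *Cd36*. They were taken by gene symbol from the 46078 genes in the deposited count files, and all 7 were found once. The 16 libraries held RNA from erythroblasts sorted from steady-state mouse bone marrow, with 4 libraries in each of 4 groups. These were polychromatic (Poly-E) and orthochromatic (Ortho-E) erythroblasts of wild-type (*Ypel4*+/+) mice and of homozygous mutant (*Ypel4*−/−) mice. All 16 libraries, wild-type included, carried the same strain label, which names the background C57BL/6N-A<tm1Brd>, the allele Ypel4<tm1a(EUCOMM)Wtsi> and the colony WtsiIeg. The mutant allele is a conventional gene trap present in every cell, and no treatment was given. The ages and sexes of the mice were not given in the sources used here.

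Cells had been sorted by Ter119 and by surface CD44, which is lost stepwise from the proerythroblast onwards, so the CD44 protein itself separated Poly-E from Ortho-E cells. For that reason the difference in *Cd44* mRNA between the populations is given as a description, with no test. Library depth ran from 2670173 to 12451234 counts. The targeted gene went with the labels: *Ypel4* was between 490 and 716 CPM in wild-type and between 9.90 and 23.6 CPM in *Ypel4*−/− Poly-E libraries, and between 4432 and 5440 against 175 and 224 CPM in Ortho-E. Levels are given in CPM, the usual unit of counts relative to library size, after edgeR's TMM scaling over the 16 libraries unless library totals are named.

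During terminal erythroid differentiation in the marrow, erythroblasts mature attached to a central macrophage, in an erythroblastic island. The integrin α4β1, a pair of the *Itga4* and *Itgb1* products, binds VCAM-1 on the macrophage and fibronectin in the matrix, and α5β1, which holds the *Itga5* product, is a fibronectin receptor. As cells mature and the nucleus is expelled, the integrins and CD44 are removed from the surface. CD36 is a scavenger and thrombospondin receptor of early erythroid cells, CD24 (mouse gene *Cd24a*) is a small glycosylphosphatidylinositol-anchored glycoprotein, and CD43 (gene *Spn*) is a large sialylated mucin of leukocytes and progenitors.

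Upstream DNA of 3 of the genes is shown, because *Itga4* and *Itgb1* encode partner chains whose mRNA levels moved apart between the populations, and because *Cd36* was higher in Ortho-E cells under both scalings used below. Each sequence is the 250 bases before a RefSeq start site (build GRCm38.p6), 5′ to 3′ on the gene's strand, with capitals for CACCC, the core of sites bound by KLF1 and its relatives, or for its reverse complement GGGTG, and for GATAA (reverse complement TTATC), the core of GATA1 sites. Such motifs can share letters at their ends, but no matches overlapped in the windows shown.
Itga4, chr2:79255176-79255425 (+): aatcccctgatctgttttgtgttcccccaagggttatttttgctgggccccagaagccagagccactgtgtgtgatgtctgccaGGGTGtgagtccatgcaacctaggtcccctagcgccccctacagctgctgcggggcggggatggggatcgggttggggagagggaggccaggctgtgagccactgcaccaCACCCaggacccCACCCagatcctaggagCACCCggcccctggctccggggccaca
Itgb1, chr8:128685404-128685653 (+): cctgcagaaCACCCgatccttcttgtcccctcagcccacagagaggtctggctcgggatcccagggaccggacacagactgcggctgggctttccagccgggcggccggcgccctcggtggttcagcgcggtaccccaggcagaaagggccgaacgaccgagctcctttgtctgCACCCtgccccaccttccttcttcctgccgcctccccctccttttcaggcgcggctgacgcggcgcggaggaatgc
Cd36, chr5:17835897-17836146 (−): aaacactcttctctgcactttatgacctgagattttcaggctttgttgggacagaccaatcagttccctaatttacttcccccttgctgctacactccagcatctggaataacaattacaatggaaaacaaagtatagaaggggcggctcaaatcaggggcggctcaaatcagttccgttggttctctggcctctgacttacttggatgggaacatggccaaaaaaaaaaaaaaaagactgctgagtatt
The *Itga4* window held CACCC 4 times, the *Itgb1* window 2 times and the *Cd36* window not at all, and none of these 3 windows held GATAA. Of 32851 windows of the same length, 52.0% held CACCC and 22.6% held GATAA on either strand. Of the 6 members matched in the RefSeq table, *Spn* held CACCC 4 times, *Cd44* held GATAA once and *Itga5* neither. A match of letters is no evidence of binding. The *Cd36* start site used here lies inside the gene's span in the count files.

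First, the integrin chains were examined. *Itga4* (ENSMUSG00000027009, chr2:79255426-79333123, + strand) encodes the α4 chain. In wild-type Poly-E libraries it was at 431, 339, 306 and 335 CPM, and in wild-type Ortho-E libraries at 658, 717, 652 and 748 CPM. In *Ypel4*−/− cells the values were 352, 376, 346 and 340 CPM in Poly-E and 770, 615, 668 and 779 CPM in Ortho-E. All Ortho-E libraries were thus above all Poly-E libraries on this scale, and the genotypes overlapped within each population. The log2 fold change from Poly-E to Ortho-E was 1.01 (SE 0.12, edgeR adjusted p = 8.04e-08) in wild-type and 1.18 (SE 0.11, edgeR adjusted p = 8.15e-11) in *Ypel4*−/− cells with TMM scaling, but the sign turned with plain library totals, where it was −0.27 (edgeR adjusted p = 0.0413) and −0.24 (edgeR adjusted p = 0.04999). No direction is therefore given for *Itga4* alone. Its exons overlap those of *Cerkl* on the opposite strand, and counting did not use strand.

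The choice of scaling moved every gene in the comparison of populations. Library totals lowered the log2 fold change of the median gene by 1.28 in wild-type and by 1.399 in *Ypel4*−/− cells relative to TMM. The median over all genes tested was −0.19 with TMM and −1.45 with library totals in wild-type cells, and −0.09 and −1.47 in *Ypel4*−/− cells. Relative to that median, *Itga4* stood at 1.20 with TMM and 1.18 with library totals in wild-type cells, and at 1.26 and 1.23 in *Ypel4*−/− cells. Its position among all genes hardly depended on the scaling, with 75.07% of wild-type genes below it under TMM and 74.96% under library totals. In bulk RNA, fewer cells expressing a gene and less RNA per cell cannot be told apart.

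*Itgb1* (ENSMUSG00000025809, chr8:128685654-128733200, + strand) encodes the β1 chain shared by α4β1 and α5β1. It was at 111.5, 121.5, 108.9 and 117.8 CPM in wild-type Poly-E and at 58.7, 80.6, 62.3 and 67.4 CPM in wild-type Ortho-E libraries. The *Ypel4*−/− values were 122.6, 116.0, 108.7 and 124.0 CPM in Poly-E and 60.7, 56.4, 51.2 and 67.5 CPM in Ortho-E. Every Ortho-E library was below every Poly-E library, in both genotypes. *Itgb1* fell by 0.75 on the log2 scale in wild-type (SE 0.13, edgeR adjusted p = 1.32e-05) and by 0.83 in *Ypel4*−/− cells (SE 0.13, edgeR adjusted p = 1.03e-06) with TMM, and by 2.03 and 2.25 with library totals. It also stayed below the median gene, with 37.3% of wild-type genes and 32.4% of *Ypel4*−/− genes under it by TMM.

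*Itga5* (ENSMUSG00000000555, chr15:103344289-103366763, − strand), the α5 chain, was barely detected. It had 3 counts over the 4 wild-type Poly-E libraries, 0 in wild-type Ortho-E, 2 in *Ypel4*−/− Poly-E and 3 in *Ypel4*−/− Ortho-E libraries. A count of 0 among the 18004341 counts of wild-type Ortho-E cells allows up to 0.167 CPM by library totals, which covers counting error only. A change in *Itga5* was not detectable at this depth, and it was left out of all fits.

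**Figure D1:**
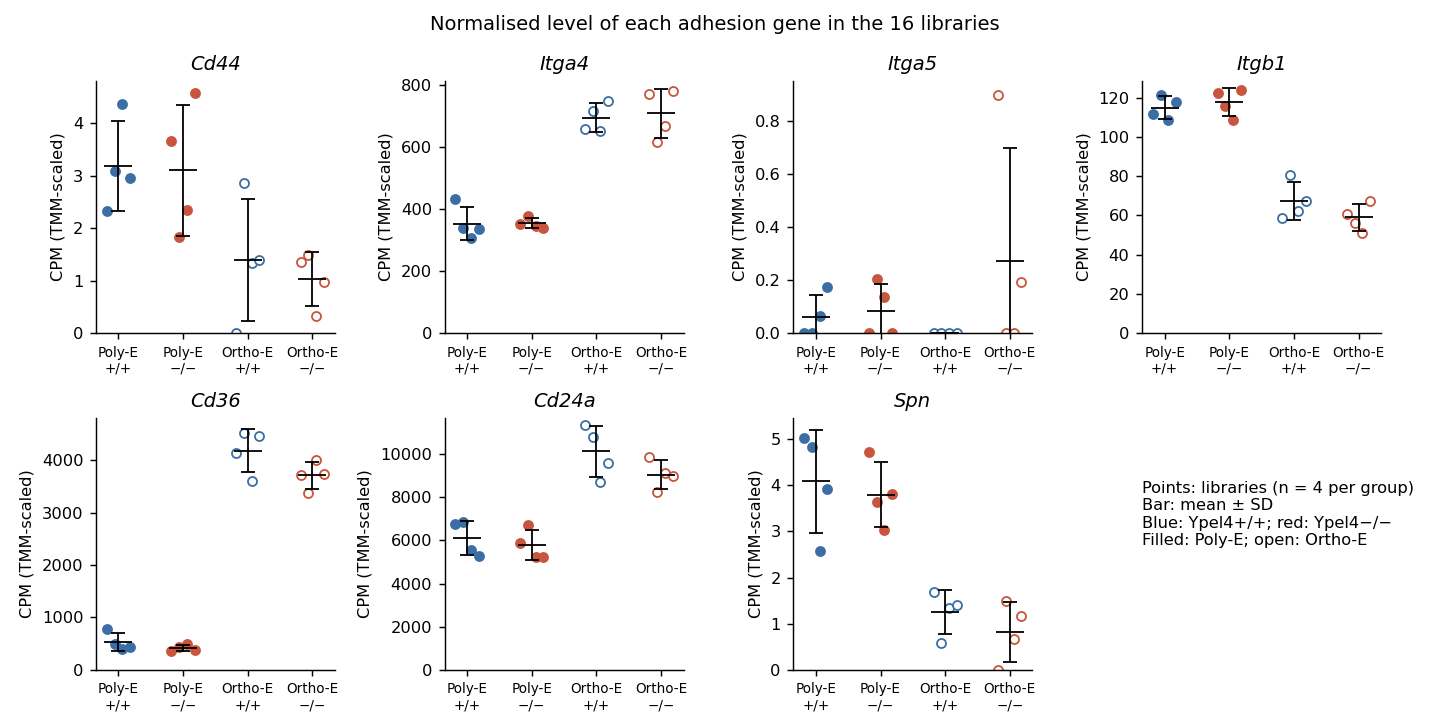
Level of each of the 7 adhesion genes in CPM with TMM scaling, with a linear axis from 0 for each gene. Points are the 4 libraries of a group, filled for Poly-E and open for Ortho-E, blue for *Ypel4*+/+ and red for *Ypel4*−/−, and bars are the mean ± SD. The populations do not overlap for *Itga4*, *Itgb1*, *Cd36*, *Cd24a* and *Spn*, while the genotypes overlap throughout, and *Itga5* is near 0 in all groups.

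To compare the partner chains without any scaling between libraries, the ratio of *Itga4* to *Itgb1* was taken within each library, per kilobase of exon. In Poly-E cells the ratio was 1.13, 0.815, 0.821 and 0.831 in wild-type and 0.837, 0.947, 0.928 and 0.800 in *Ypel4*−/− libraries. In Ortho-E cells it was 3.27, 2.60, 3.06 and 3.24 in wild-type and 3.70, 3.18, 3.81 and 3.37 in *Ypel4*−/− libraries. By this measure the 2 mRNAs were near equal in Poly-E cells, and *Itga4* exceeded *Itgb1* in every Ortho-E library. The measure divides by all annotated exon bases, 13978 for *Itga4* and 4081 for *Itgb1*. Reads in the exon overlap of *Itga4* and *Cerkl* were not counted. The level of the ratio depends on those lengths, but its change between the populations does not. On the log2 scale the ratio was 1.88 higher in Ortho-E. A two-sided exact permutation test over 8 against 8 libraries gave p = 0.000155, the smallest it can give. Its adjusted p was 0.000291 over 15 ratios computed. That test did not pair libraries of the same genotype and number. With them paired, an exact sign-flip permutation test gave an adjusted p of 0.0130.

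The same ratio was compared between genotypes. Mean ratios were 0.899 ± 0.153 (SD, n = 4) in wild-type and 0.878 ± 0.0708 (SD, n = 4) in *Ypel4*−/− Poly-E cells, and 3.04 ± 0.311 and 3.52 ± 0.291 (SD, n = 4) in Ortho-E cells. Neither difference passed the test (two-sided exact permutation test, p = 0.857 in Poly-E and p = 0.0857 in Ortho-E, where 4 against 4 libraries cannot go below 0.0286). The Ortho-E libraries of the genotypes overlapped, the lowest *Ypel4*−/− ratio of 3.18 lying under the highest wild-type ratio of 3.27.

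Next, the other receptors and glycoproteins were examined. *Cd36* (ENSMUSG00000002944, chr5:17781690-17888801, − strand) was the only member higher in Ortho-E cells under both scalings. It was at 784, 487, 399 and 433 CPM in wild-type Poly-E and at 4140, 4515, 3612 and 4472 CPM in wild-type Ortho-E libraries. In *Ypel4*−/− cells it was at 351, 431, 498 and 383 CPM in Poly-E and at 3727, 3375, 4009 and 3742 CPM in Ortho-E. The lowest Ortho-E library stood far above the highest Poly-E library. *Cd36* rose 8.14-fold in wild-type cells (log2 3.02, SE 0.19, edgeR adjusted p = 2.87e-10) with TMM and 3.37-fold with library totals. In *Ypel4*−/− cells the log2 fold change was 3.33 with TMM (SE 0.13, edgeR adjusted p = 7.36e-21) and 1.92 with library totals. Among all genes tested in wild-type cells, 97.1% had a lower log2 fold change, on either scale.

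*Cd24a* (ENSMUSG00000047139, chr10:43579169-43584262, + strand) was the most abundant of the 7 mRNAs. It was at 6771, 6840, 5554 and 5284 CPM in wild-type Poly-E and at 11383, 10822, 8737 and 9593 CPM in wild-type Ortho-E libraries. The *Ypel4*−/− range was 5245 to 6726 CPM in Poly-E and 8230 to 9889 CPM in Ortho-E. All Ortho-E libraries were above all Poly-E libraries with TMM, but as for *Itga4* the sign turned with the scaling. The log2 fold change was 0.76 (SE 0.13, edgeR adjusted p = 9.46e-06) in wild-type and 0.83 in *Ypel4*−/− cells with TMM, against −0.52 (edgeR adjusted p = 0.000145) and −0.59 (edgeR adjusted p = 4.84e-06) with library totals. Relative to the median gene *Cd24a* was at 0.95 with TMM and 0.93 with library totals in wild-type cells.

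*Spn* (ENSMUSG00000051457, chr7:127132232-127137823, − strand), the CD43 gene, was low in both populations. It was at 5.03, 4.84, 2.58 and 3.91 CPM in wild-type Poly-E and at 1.69, 0.571, 1.332 and 1.399 CPM in wild-type Ortho-E libraries. In *Ypel4*−/− cells it was at 4.72, 3.64, 3.04 and 3.81 CPM in Poly-E and at 0, 1.48, 0.656 and 1.16 CPM in Ortho-E. No Ortho-E library reached the lowest Poly-E library, although the Ortho-E values rest on 15 counts in wild-type and 12 in *Ypel4*−/− cells. *Spn* fell by 1.54 on the log2 scale in wild-type (SE 0.42, edgeR adjusted p = 0.00242) and by 1.92 in *Ypel4*−/− cells (SE 0.44, edgeR adjusted p = 0.000338) with TMM, and by 2.81 and 3.30 with library totals.

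*Cd44* (ENSMUSG00000005087, chr2:102811141-102901665, − strand), the gene of the sorting marker and hyaluronan receptor, was also low. It was at 2.33, 3.10, 4.37 and 2.96 CPM in wild-type Poly-E and at 0, 2.857, 1.332 and 1.399 CPM in wild-type Ortho-E libraries. The *Ypel4*−/− values were 3.65, 1.82, 2.34 and 4.58 CPM in Poly-E and 1.35, 1.48, 0.328 and 0.965 CPM in Ortho-E. The populations overlapped in wild-type cells, where 1 Ortho-E library was above 1 Poly-E library, and did not overlap in *Ypel4*−/− cells. The log2 fold change, as a description, was −1.27 (SE 0.47) in wild-type and −1.59 (SE 0.46) in *Ypel4*−/− cells with TMM. With library totals it was −2.54 and −2.96.

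**Figure D2:**
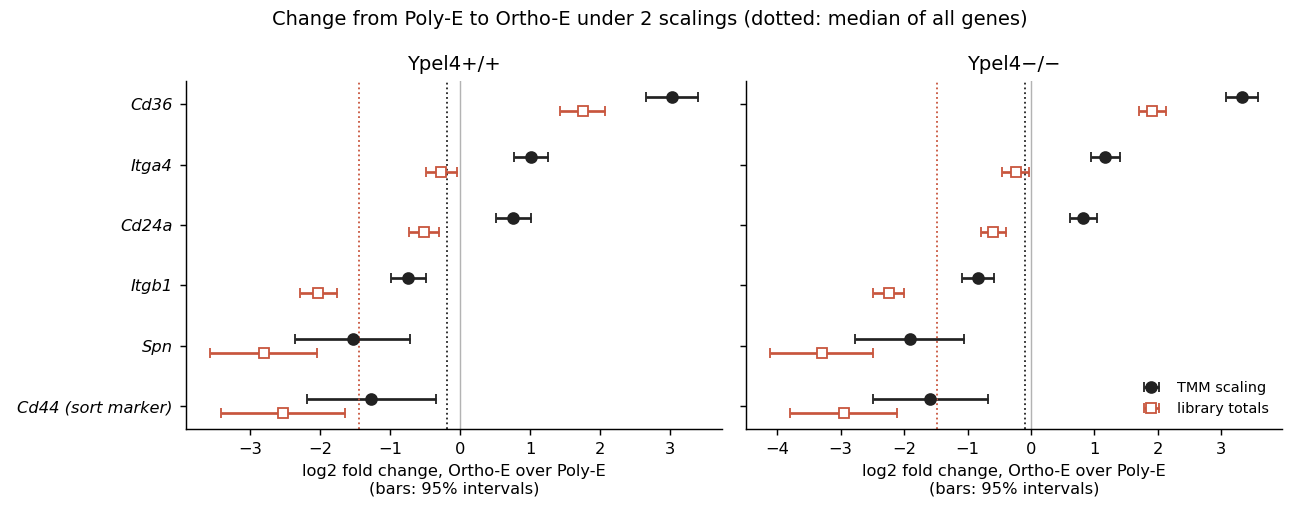
Log2 fold change from Poly-E to Ortho-E of the 6 genes with enough counts, in *Ypel4*+/+ (left) and *Ypel4*−/− cells (right), with TMM scaling (filled circles) or plain library totals (open squares). Bars are 95% intervals from the standard errors, and dotted lines mark the median of all genes under each scaling. *Cd36* is above 0 and *Itgb1* and *Spn* are below 0 under both scalings, whereas *Itga4* and *Cd24a* lie above 0 with TMM and below 0 with library totals.

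Of the 6 members other than *Cd44*, 5 were tested and all 5 passed in each genotype, with *Itga5* not tested. Among all genes tested in wild-type cells 58.5% of 11747 passed, 26.4% higher and 32.1% lower in Ortho-E, and in *Ypel4*−/− cells 61% of 11973 passed, 29.5% higher and 31.5% lower, so a call was common for any gene. Of the calls in wild-type cells 45.1% were higher in Ortho-E with TMM and 14.7% with library totals, and in *Ypel4*−/− cells 48.4% and 15.5%. With library totals 8303 of the 11747 genes were called in wild-type and 8626 of the 11973 in *Ypel4*−/− cells. A lower level was thus the common call for any gene under that scaling. With TMM the members split into 3 higher and 2 lower, and with library totals into 1 higher and 4 lower. The name of the group, adhesion molecules lost in maturation, thus held at the mRNA level for *Itgb1* and *Spn* under both scalings, went against *Cd36*, and depended on the scaling for *Itga4* and *Cd24a*. These wild-type and *Ypel4*−/− comparisons use separate libraries.

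Ratios between members showed unequal change irrespective of scaling. *Itga5* was left out, as its ratios rest on the pseudocount of 0.5. All 10 ratios among the other 5 genes differed between the populations (two-sided exact permutation test, adjusted over 15 ratios). In 8 of them the Ortho-E and Poly-E libraries did not overlap. The permutation test did not pair libraries of the same genotype and number. With them paired, the 10 ratios had adjusted p-values of 0.0130 to 0.0195 (exact sign-flip permutation test). The value was 0.0195 for *Itga4* to *Cd24a* and for *Itgb1* to *Spn*. These ratios share 5 genes and are not independent. The same share for pairs of other genes was not computed. Of all genes tested, 58.5% in wild-type and 61% in *Ypel4*−/− cells differed between the populations. The counts are therefore not read as particular to these 5 genes. *Cd36* gained on each of the others, the log2 ratio of *Cd36* to *Cd24a* being 2.41 higher and that of *Cd36* to *Spn* 5.01 higher in Ortho-E than in Poly-E. The ratio of *Itga4* to *Cd36* fell by 2.11, and that of *Itgb1* to *Cd36* fell by 3.99. *Itga4* and *Cd24a* moved most alike, their ratio differing by 0.30 (exact permutation test, p = 0.00233, adjusted p = 0.00318), with overlapping libraries. In the wild-type libraries alone this difference was 0.25 and did not pass (exact permutation test, adjusted p = 0.132). The ratio of *Itgb1* to *Cd24a* fell by 1.58. That of *Itgb1* to *Spn* was 1.02 higher, with overlap (exact permutation test, p = 0.00357, adjusted p = 0.00447), and with a pseudocount of 2 it was 0.41 higher and did not pass (exact permutation test, adjusted p = 0.0754). Nor did it pass in wild-type libraries alone, at 0.76 (exact permutation test, adjusted p = 0.107), or in *Ypel4*−/− libraries alone, at 1.28 (exact permutation test, adjusted p = 0.0714).

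**Figure D3:**
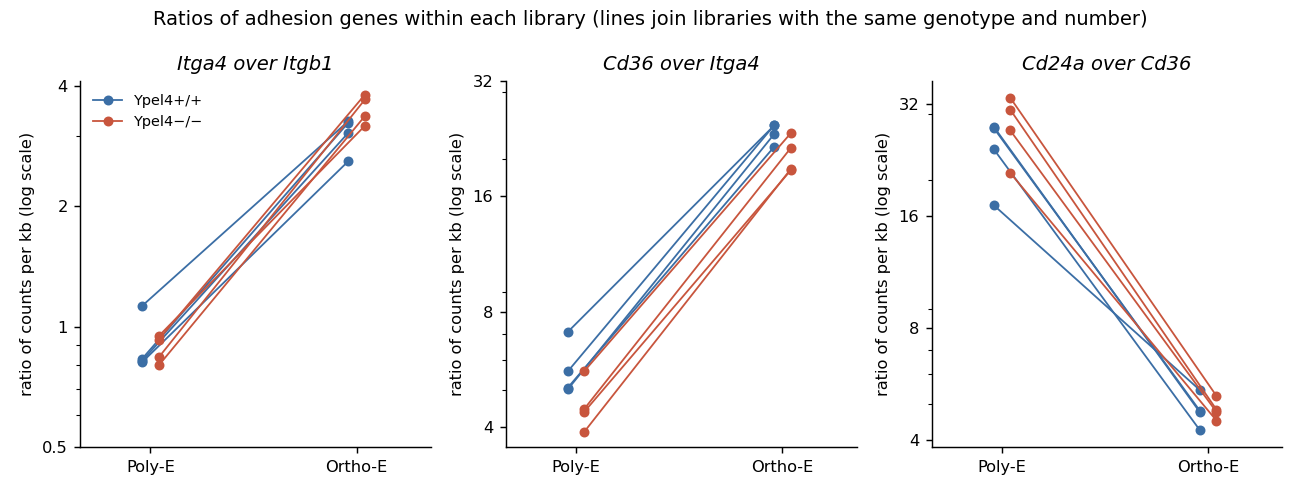
Ratios of counts per kilobase of exon within each library for *Itga4* over *Itgb1*, *Cd36* over *Itga4* and *Cd24a* over *Cd36*, on log axes, in Poly-E and Ortho-E libraries. Lines join libraries with the same genotype and number, blue for *Ypel4*+/+ and red for *Ypel4*−/−. In every joined pair the first 2 ratios are higher and the third is lower in Ortho-E, with *Itga4* over *Itgb1* going from about 0.899 to 3.04 on average in wild-type cells.

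The order of the levels was compared per kilobase of exon, in TMM-scaled CPM, and depends on the annotated exon lengths. In wild-type Poly-E cells *Cd24a* was at 3371, *Cd36* at 146, *Itgb1* at 28.2, *Itga4* at 25.2, *Spn* at 0.888, *Cd44* at 0.471 and *Itga5* at 0.0137 CPM per kb. *Itgb1* and *Itga4* overlapped, as did *Spn* and *Cd44*, and the other neighbours did not. In wild-type Ortho-E cells *Cd24a* was at 5590, *Cd36* at 1166, *Itga4* at 49.6, *Itgb1* at 16.5, *Spn* at 0.271, *Cd44* at 0.206 and *Itga5* at 0 CPM per kb. There the libraries of *Itga4* and *Itgb1* no longer overlapped, while *Spn* and *Cd44* did, as did *Cd44* and *Itga5*. The order was the same in *Ypel4*−/− cells. Within a library the level of *Cd24a* over *Cd36* per kb narrowed from 24.2 ± 4.98 to 4.81 ± 0.491 (SD, n = 4) in wild-type and from 28.03 ± 5.39 to 4.84 ± 0.309 (SD, n = 4) in *Ypel4*−/− cells.

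Next, the genotypes were compared within each population, the question the sorted samples were collected for. None of the 6 tested members passed the test in Poly-E or in Ortho-E cells, against a background of 0.00807% of 12395 genes for Poly-E (all of it lower, 0% higher) and 0.0285% of 10521 genes for Ortho-E (0.0095% higher and 0.019% lower). At an unadjusted p under 0.05, edgeR gave 271 and 387 genes. The largest estimate in Poly-E was for *Cd36*, at 416 ± 63.7 CPM in *Ypel4*−/− against 526 ± 176 CPM in wild-type cells (SD, n = 4), a log2 fold change of −0.34 with a 95% interval from −0.73 to 0.05. That estimate rested on the first wild-type library, with 784 CPM, and was −0.08 without it. In Ortho-E cells *Cd36* was at 3713 ± 260.0 against 4185 ± 417 CPM (SD, n = 4), a log2 fold change of −0.15 with an interval from −0.33 to 0.03.

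The intervals show which differences these libraries could have missed. For *Itga4* the 95% interval of the log2 fold change was −0.21 to 0.22 in Poly-E and −0.14 to 0.24 in Ortho-E, and for *Itgb1* −0.16 to 0.24 and −0.42 to 0.10. For *Cd24a* it was −0.31 to 0.15 and −0.33 to 0.05. The low genes were far less certain, with −0.54 to 0.47 for *Spn* and −0.55 to 0.57 for *Cd44* in Poly-E. In Ortho-E the interval was −1.81 to 0.77 for *Spn* and −1.72 to 0.96 for *Cd44*. Both include a 2-fold lower level in *Ypel4*−/− cells, which could have been missed. Their upper ends stop short of a 2-fold higher level, but rest on 12 to 15 counts per group.

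The change from Poly-E to Ortho-E was then compared between genotypes with an interaction term over all 16 libraries. None of the 6 tested members passed, and 0% of 13318 genes did by edgeR, with 364 at an unadjusted p under 0.05, while DESeq2 called 1 gene. The difference in log2 fold change, *Ypel4*−/− minus wild-type, was 0.17 (SE 0.22) for *Cd36*, 0.03 (SE 0.17) for *Itga4*, −0.22 (SE 0.18) for *Itgb1* and −0.08 (SE 0.17) for *Cd24a*. It was −0.48 (SE 0.66) for *Spn* and −0.40 (SE 0.71) for *Cd44*.

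**Figure D4:**
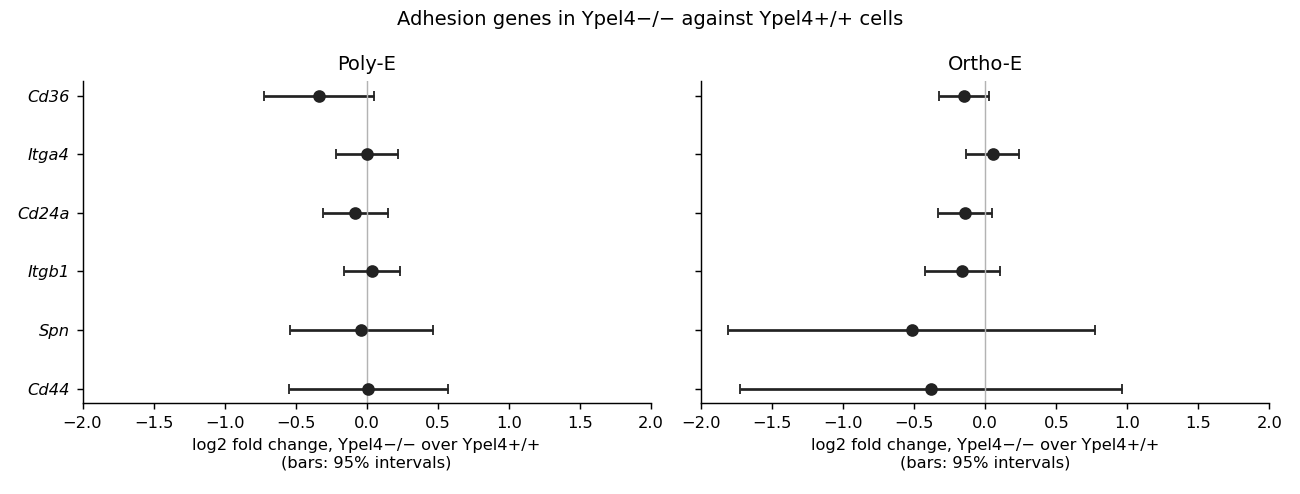
Log2 fold change of *Ypel4*−/− over *Ypel4*+/+ for the 6 genes with enough counts, in Poly-E (left) and Ortho-E cells (right), TMM scaling. Bars are 95% intervals from the standard errors, and every bar crosses 0. The bars of *Spn* and *Cd44* in Ortho-E, where they had 12 to 15 counts per group, are the widest.

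To set the members beside related genes, several lists were described in wild-type cells. They held other integrin chains, integrin adaptors, linkers of membrane proteins to actin with their partners, erythroblastic island adhesion genes and other surface proteins. Among all genes tested 26.4% were called higher and 32.1% lower with TMM in wild-type cells, and 29.5% and 31.5% in *Ypel4*−/− cells. With library totals 8303 of 11747 genes were called in wild-type and 8626 of 11973 in *Ypel4*−/− cells. Only 14.7% and 15.5% of those calls were higher. The counts per list are therefore not read as particular to these lists. Of 20 other integrin chains 8 were tested and 2 were higher in Ortho-E with TMM, with a list median of 0.92 against −0.19 for all genes. *Itga2b*, the αIIb chain, rose by a log2 fold change of 2.24 with TMM (edgeR adjusted p = 1.90e-13) and by 0.96 with library totals. Its level went from 20.8 ± 2.84 to 95.9 ± 8.08 CPM (SD, n = 4), and this describes the mRNA of 1 chain only. *Itga1*, a collagen receptor chain, was called with TMM at 1.70 but not with library totals, where it was at 0.44 (edgeR adjusted p = 0.531). With library totals 1 chain was higher and 2 were lower. In *Ypel4*−/− cells 3 chains were called higher and 1 lower of 8 tested with TMM, against 1 and 2 with library totals.

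Of 24 integrin adaptors found once in the files, 15 were tested, with 2 called higher and 4 lower with TMM and 1 higher and 11 lower with library totals. *Fermt3* (kindlin-3, which activates integrins), *Parvb* and *Lims1* (partners of integrin-linked kinase) fell by 1.47, 1.45 and 1.32 on the log2 scale, and were lower with library totals as well. *Sharpin*, an inhibitor of β1 integrin activation and part of a ubiquitin ligase, rose by 1.76 with TMM and by 0.48 with library totals. *Ptk2b*, a focal adhesion kinase relative, was called with TMM at 1.54 but not with library totals at 0.26. In *Ypel4*−/− cells *Ptk2b* was at 0.60 with TMM and was not called (edgeR adjusted p = 0.21). There 1 of 16 tested adaptors was called higher and 4 lower with TMM, against 1 and 13 with library totals.

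The list of 8 genes for ezrin, radixin, moesin and proteins that act with them, such as kinases, was tested in full. Ezrin, radixin and moesin tie CD44, CD43 and other surface proteins to actin. With TMM 5 of the 8 genes were lower and 1 higher, and with library totals 6 were lower and none higher. *Ezr* (ezrin) fell by 2.04 on the log2 scale, *Rock2* fell by 1.98 and *Rdx* (radixin) fell by 1.963, while *Rock1* was at 0.87 with TMM and at −0.41 with library totals. The list median was −0.58 with TMM against −0.19 for all genes. In *Ypel4*−/− cells 1 of the 8 genes was called higher and 4 lower with TMM, against 0 and 6 with library totals.

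Of 12 island and red cell adhesion genes found, 8 were tested, and 2 were called in each direction with TMM, against 1 higher and 4 lower with library totals. *Maea*, the erythroblast macrophage protein that also belongs to the CTLH ubiquitin ligase, fell by 1.58 on the log2 scale, from 26.1 ± 4.40 to 8.37 ± 1.24 CPM (SD, n = 4), and *Cd99l2* fell by 0.63, both being lower with library totals as well. *Cd47*, the signal on red cells that restrains phagocytosis, rose by 1.55 with TMM and by 0.27 with library totals (edgeR adjusted p = 0.0323). *Bsg* (basigin) was at 0.62 with TMM and −0.66 with library totals. In *Ypel4*−/− cells *Cd99l2* was at −0.25 with TMM and was not called (edgeR adjusted p = 0.306). There 2 of 8 tested genes of this list were called higher and 1 lower with TMM, against 1 and 4 with library totals.

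Of 16 other surface proteins 12 were tested, with 1 called higher and 3 lower with TMM and 1 higher and 6 lower with library totals. The higher gene was again *Cd47*. The tetraspanins *Cd151* and *Cd81* fell by 2.36 and 1.56 on the log2 scale, and *Cxcr4*, the receptor that retains cells in marrow, by 1.00, and all 3 were lower with library totals. In *Ypel4*−/− cells 5 of 14 tested genes of this list were called higher and 3 lower with TMM, against 1 and 5 with library totals.

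**Figure D5:**
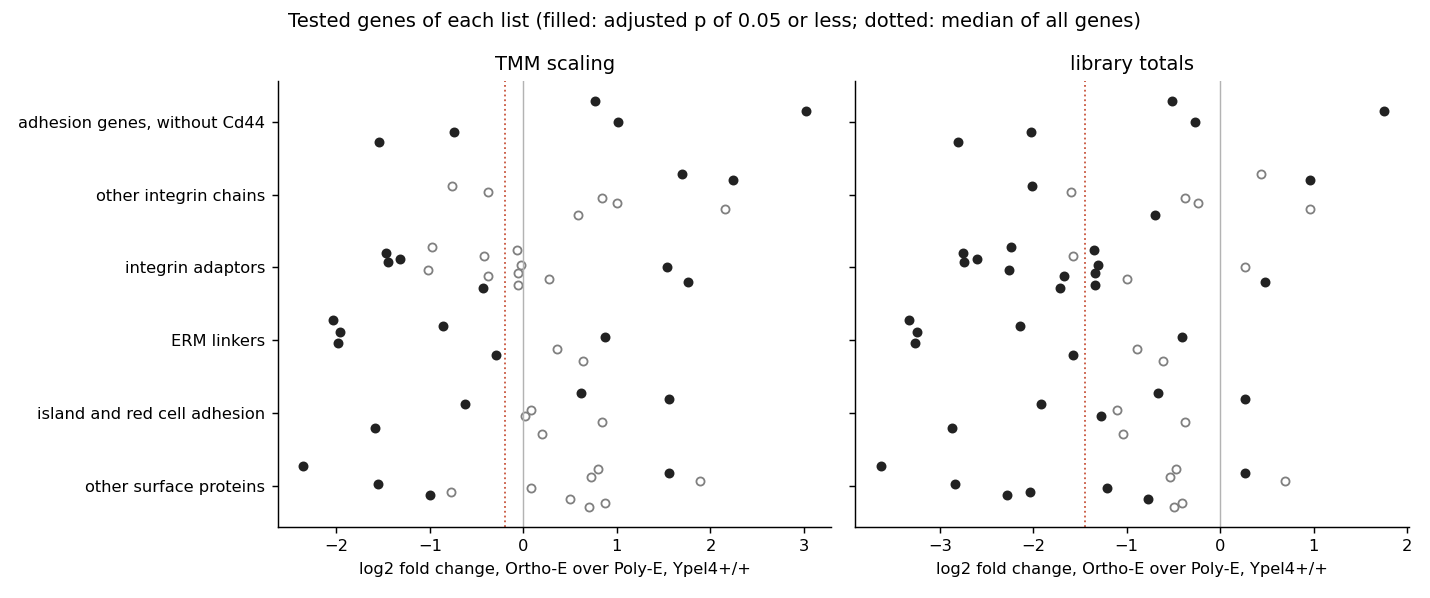
Log2 fold change from Poly-E to Ortho-E in *Ypel4*+/+ cells for each tested gene of the adhesion group and of 5 lists of related genes, with TMM scaling (left) and plain library totals (right). Filled points have an adjusted p of 0.05 or less and the dotted line is the median of all genes. The 3 lowest genes of the linker list, *Ezr*, *Rock2* and *Rdx*, lie near −2 with TMM, and most filled points shift below 0 with library totals.

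Summed levels of marker genes of other cell types were compared with these results, with TMM scaling unless library totals are named. The erythroid list had the highest sum of the marker lists in both populations, with *Hbb-bs* (β-globin) and *Slc4a1* (Band 3) its most abundant genes. None of its 11 genes was at 0. The summed level of 12 B cell genes, led by *Ighm* and *Cd74*, was between 41.6 and 55.2 CPM in wild-type Poly-E and between 66.3 and 92.9 CPM in wild-type Ortho-E libraries, but with library totals between 64.2 and 86.0 and between 41.2 and 61.9. The 10 megakaryocyte genes, led by *Vwf* and *Gp9*, went from between 32.7 and 46.2 to between 73.7 and 84.9 CPM. With library totals they went from between 50.5 and 66.9 to between 46.6 and 52.6. In wild-type cells 4 of them were at 0 in each population, *Pf4* in Ortho-E only. *Vwf* alone averaged 27.3 CPM in wild-type Poly-E and 64.9 CPM in wild-type Ortho-E libraries. The 15 granulocyte genes (*Lyz2*, *S100a9*) were between 2.61 and 3.87 and then between 5.71 and 22.2 CPM, with *Elane* and *Ctsg* at 0 in Ortho-E, and overlapped with library totals, at 4.06 to 5.97 and 3.75 to 13.7. The 12 macrophage genes (*Axl*, *Vcam1*) were between 1.74 and 4.76 and then between 7.9995 and 14.4 CPM, with *Marco* at 0, and overlapped with library totals, at 2.69 to 7.18 and 5.24 to 8.71. The 10 T cell genes (*Lck*, *Il7r*) were between 5.23 and 7.21 and then between 2.86 and 8.66 CPM. Under library totals the 2 ranges did not overlap, with 8.06 to 10.8 for Poly-E against 1.87 to 5.77 for Ortho-E. Most of this sum was *Lck*, whose wild-type mean was 5.33 CPM for Poly-E against 4.55 CPM for Ortho-E. No wild-type Poly-E library had a count for *Cd3e*, *Cd3g*, *Thy1* or *Cd5*. Among wild-type Ortho-E libraries 8 of the 10 genes had no counts, these 4 together with *Cd3d*, *Cd4*, *Cd8a* and *Trac*. In *Ypel4*−/− cells the B cell sum was between 50.3 and 85.2 CPM in Poly-E and between 92.9 and 139 CPM in Ortho-E, and with library totals between 78.5 and 130.1 and between 58.7 and 100.9. Several members, such as *Spn*, *Cd44* and *Cd24a*, are also expressed by leukocytes, and the part of such cells in their levels was not tested.

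Finally, genes with the most similar profile over the 16 libraries were named by the root mean square difference of centred log2 CPM, among 4834 or 4835 genes of at least 10 CPM on average. The nearest to *Itga4* were *Ces2g* at 0.09, *Rsrc2* at 0.10 and *Son* at 0.10, and the nearest to *Itgb1* were *Rtn3* at 0.11, *Rtf1* at 0.11 and *Csnk2b* at 0.12. *Cd36* was most like *Bnip3l* at 0.10, *Hbp1* at 0.12 and *Ogt* at 0.12. *Bnip3l*, the mitophagy receptor of maturing red cells, went from a mean of 552 CPM in Poly-E to 4909 CPM in Ortho-E. *Cd24a* was most like *Ift140* at 0.07, *Ctse* at 0.08 and *Ormdl3* at 0.08. For the low genes the nearest profiles were farther off, with *Ipo4*, *Cdc42se1* and *Snhg5* at 0.37 to 0.43 for *Spn*, and *Cwc22*, *Agpat3* and *Tmem63a* at 0.47 to 0.51 for *Cd44*.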

How the data were processed

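RNA was sequenced from 16 sorted erythroblast samples with unstranded TruSeq libraries. The authors mapped the reads to GRCm38 with the nf-core/rnaseq pipeline and deposited raw counts per gene and library from featureCounts 1.6.4. Per the file headers, strand was not used. Reads that mapped to several places or overlapped several genes were not counted, which lowers genes with near copies. No row lacked a gene, and no libraries were identical.

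Tests were edgeR's robust quasi-likelihood F tests (version 4.0.16, R 4.3.3) with TMM factors. A gene entered a fit where its libraries summed to 10 counts or more, p-values were adjusted by Benjamini-Hochberg over all genes tested, and the threshold was 0.05. Population and genotype contrasts used their own 8 libraries, and the interaction all 16. Scripts were tested on simulated data. The SE is the log2 fold change divided by the root of F, and a 95% interval is the normal one. Ratios between members were log2((count + 0.5)/(count + 0.5)). The genotype comparison of the *Itga4* to *Itgb1* ratio was added after seeing the data. Alternatives were DESeq2 1.42.0, other scalings and filters, 13 globin genes left out, all 16 libraries, a replicate block, a term for replicates 1 and 2 against 3 and 4, and leaving out each library.

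The members and lists were chosen with earlier results of these data known. Named were all members, *Ypel4*, up to 3 called genes of lowest and of highest log2 fold change in wild-type cells per related list, the 2 genes with most counts per marker list, and the 3 genes nearest in profile to each member. *Rasgrp2* and *Itgb1bp1*, each on 2 rows, were left out. Poly-E and Ortho-E samples with the same genotype and number were taken as the same mouse, from the titles. Over 4835 genes their deviations correlated at 0.49 to 0.65 in wild-type cells, where differently numbered samples reached 0.43. In *Ypel4*−/− cells they correlated at 0.09 to 0.56, and differently numbered samples reached 0.29, so the ranges overlapped there. Same-numbered samples of the 2 genotypes correlated at 0.23 to 0.64 in Poly-E, where differently numbered ones reached 0.60, and at −0.13 to 0.34 in Ortho-E, whose genotype ratios were compared unpaired. Between Poly-E and Ortho-E, wild-type samples 1 and 2 correlated negatively with samples 3 and 4, at −0.50 to −0.38. In *Ypel4*−/− cells the same correlations were −0.47 to 0.08. The source of this split was not tested. The sources used here give 4 samples a group from mice without stating outright that each was a separate mouse, and p-values measure the spread between these samples, which may then be technical.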

Additional observations from a re-analysis of the deposited data

How the results depend on the processing

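The counts of members called, 5 of 5 tested in each comparison of populations and 0 of 6 in each comparison of genotypes and in the interaction, were the same under every alternative run, except that edgeR's filterByExpr left 4 members to test in Ortho-E between genotypes. The 13 of 15 ratios called were 12 with a pseudocount of 0.1 or 2, 10 in wild-type and 11 in *Ypel4*−/− libraries alone. Directions turned with library totals in place of TMM for *Itga4* (−0.27 in wild-type and −0.24 in *Ypel4*−/− cells) and *Cd24a* (−0.52 and −0.59) between populations, and for *Spn* between genotypes in Poly-E (0.0147), by the construction of the scaling. Genotype estimates near 0 in Poly-E also turned for *Cd44* (−0.0111) and *Itga4* (−0.00443) with DESeq2 and for *Itga4* with DESeq2's size factors (−0.00466). The ratio of *Itga4* to *Itga5* turned to 0.34 with a pseudocount of 0.1 and to 0.32 in wild-type libraries alone, and that of *Itga5* to *Cd24a* to −0.0391 and −0.0703, where *Itga5* had 8 counts in all. With each library left out, *Cd44*, *Itga4* and *Spn* between genotypes in Poly-E ranged from −0.306 to 0.227, −0.0659 to 0.115 and −0.254 to 0.0850. In Ortho-E *Cd44* and *Itga4* ranged from −0.731 to 0.0192 and −0.0233 to 0.0929. In the interaction *Cd44* ranged from −0.755 to 0.0222, *Itga4* from −0.0215 to 0.147, *Cd36* from −0.00734 to 0.333 and *Cd24a* from −0.145 to 0.0383, and the ratio of *Itga4* to *Itga5* from −0.32 to 0.17. The replicate block changed no member's call, with *Cd36* at 3.08 in wild-type and 3.34 in *Ypel4*−/− cells and *Itga4* over *Itgb1* at an adjusted p of 0.0130 in an exact sign-flip permutation test over mice. Over all genes, calls between genotypes in Poly-E went from 1 to 2 with DESeq2, 4 without a filter, 3 in the fit of all 16 libraries, 4 with the block and 3 with the term for replicates 1 and 2 against 3 and 4. In Ortho-E they went from 3 to 5 without a filter and 15 with the block, and in the interaction from 0 to 1 with DESeq2 and with the block. Depth limits *Spn*, *Cd44* and *Itga5*.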
